A study of Homo sapiens with 8 samples.

Results

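The genes described here are 9 genes of the HLA class I antigen presentation pathway: HLA-B, HLA-C, HLA-E, HLA-F, B2M, TAP1, TAP2, TAPBP and PSMB9. They were given as a list and looked up by symbol in an RNA-seq table of 30755 genes, and 9 of 9 were found. The cells were ESO26, an established line from an oesophageal adenocarcinoma grown in RPMI-1640 with fetal bovine serum. One group of 2 libraries came from cells given an siRNA against HNF4A (labelled siHNF4A, genotype HNF4A knockdown), and the other group of 2 libraries from cells labelled control. Nothing in the labels says what the control cells received, how long after the siRNA the cells were collected, or whether the libraries of a group came from separate cultures. The p-values below therefore measure the spread between these libraries, which may be technical, and all values describe 1 cell line without added interferon in its labels. The series' text speaks of RNA-seq in triplicate, and 2 libraries per group were analysed here. HNF4A is a nuclear receptor of endodermal epithelia, and an siRNA directs the cleavage of matching mRNA.

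Class I molecules show peptides from inside a cell to CD8+ T cells. Proteins are cut by the proteasome, in which PSMB9 can replace a standard catalytic subunit, and the peptides are carried into the endoplasmic reticulum by TAP1 and TAP2, the subunits of a peptide transporter. There tapasin, the product of TAPBP, holds an empty heavy chain with its light chain beta-2 microglobulin (B2M) beside the transporter until a peptide binds. HLA-B and HLA-C are classical heavy chains that present to T cells and are read by receptors of natural killer cells. HLA-E presents leader peptides of other class I chains to natural killer cells, and HLA-F is a non-classical heavy chain. These genes are known targets of interferon-gamma through factors that include IRF1 and NLRC5, and tumours can escape T cells by losing them.

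In RefSeq (GRCh38.p14), 8 of the 9 genes lie in the major histocompatibility complex on chromosome 6. HLA-F spans chr6:29723434-29738532, HLA-E chr6:30489509-30494194, HLA-C chr6:31268749-31272092 and HLA-B chr6:31353875-31357179. TAP2 spans chr6:32821831-32838739, TAP1 chr6:32845209-32853704, PSMB9 chr6:32854192-32859851 and TAPBP chr6:33299694-33314078. TAP1 and PSMB9 are transcribed away from each other from starts 488 bases apart. B2M lies apart from the complex, at chr15:44711517-44718145.

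The stretches before the transcript starts are shown because class I genes share a known upstream arrangement, read by interferon, NF-kappa B and X-box factors. They are RefSeq reference sequence of GRCh38.p14, not read from ESO26, and each runs 5′ to 3′ on the strand of its gene. RefSeq promoter windows were matched for 8 of the 9 genes; HLA-E had none in the table used. Capitals mark motif matches on either strand, which may overlap or touch: interferon elements (GAAANNGAAA, or GAAGTGAAA), kappa B (GGGGANTCC, or GGGACTTTC), TGACG (part of the X box), the CCAAT box and the GC box GGGCGG. HLA-B (chr6:31357220-31357359, minus strand), HLA-C (chr6:31272133-31272272, minus strand) and HLA-F (chr6:29723254-29723393, plus strand) are shown over positions -180 to -41 from the start.
HLA-B: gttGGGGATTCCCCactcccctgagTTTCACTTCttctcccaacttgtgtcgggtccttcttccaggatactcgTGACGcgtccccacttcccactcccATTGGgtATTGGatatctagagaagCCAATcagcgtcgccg
HLA-C: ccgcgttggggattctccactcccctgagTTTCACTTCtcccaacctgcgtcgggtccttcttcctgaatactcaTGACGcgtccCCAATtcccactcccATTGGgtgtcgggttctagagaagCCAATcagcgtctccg
HLA-F: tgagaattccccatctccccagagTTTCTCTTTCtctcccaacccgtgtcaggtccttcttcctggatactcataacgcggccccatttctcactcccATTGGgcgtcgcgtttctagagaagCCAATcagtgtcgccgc

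The remaining stretches are B2M (chr15:44711367-44711476, plus strand) and TAP1 (chr6:32853745-32853854, minus strand) over positions -150 to -41. TAP2 (chr6:32838740-32838859, minus strand) is shown over the last 120 bases before the start and TAPBP (chr6:33314079-33314138, minus strand) over the last 60.
B2M: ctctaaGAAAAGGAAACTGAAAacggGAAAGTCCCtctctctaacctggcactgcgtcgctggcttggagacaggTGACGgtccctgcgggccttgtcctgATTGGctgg
TAP1: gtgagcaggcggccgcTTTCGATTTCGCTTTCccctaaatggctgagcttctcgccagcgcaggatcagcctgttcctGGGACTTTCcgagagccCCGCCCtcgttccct
TAP2: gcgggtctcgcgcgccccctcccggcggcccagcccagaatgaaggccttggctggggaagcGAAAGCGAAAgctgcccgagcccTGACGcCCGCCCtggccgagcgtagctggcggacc
TAPBP: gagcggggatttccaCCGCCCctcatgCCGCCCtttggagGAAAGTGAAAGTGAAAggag

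Over the 250 bases before the start, the 3 heavy chain promoters resembled each other. HLA-B and HLA-C were identical at 89.0% of aligned positions (226 of 254), HLA-B and HLA-F at 80.4%, and HLA-C and HLA-F at 78.7%. The other pairs of windows lay between 46.2% and 51.9%. The interferon element GAAANNGAAA stood in 5 of the 8 windows (HLA-F, B2M, TAP1, TAP2 and TAPBP) and in 3.02% of the 35116 windows of the promoter table. HLA-B and HLA-C held the related form GAAGTGAAA, which was added to the search after their sequences were seen and stood in 0.439% of all windows. The kappa B form GGGGANTCC was in the window of HLA-B (1.36% of all windows), and the form GGGACTTTC, likewise added after the sequences were seen, in those of TAP1 and B2M (0.325%). TGACG was in 5 of 8 windows against 21.2% of all, CCAAT in 6 of 8 against 32.0%, and GGGCGG in 5 of 8 against 42.6%. The starts of TAP1 and PSMB9 lie 488 bases apart, so their windows overlap. Their CCAAT matches, at -249 and -243, are the same 5 bases, counted for both genes. Matches of 2 HNF4 motif forms were also searched: CAAAGTCCA, in 0.325% of all windows, and CAAAGNNCA, in 4.44%. Neither form was found in the 8 windows, which says only that these letters are not in these stretches.

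**Figure D1:**
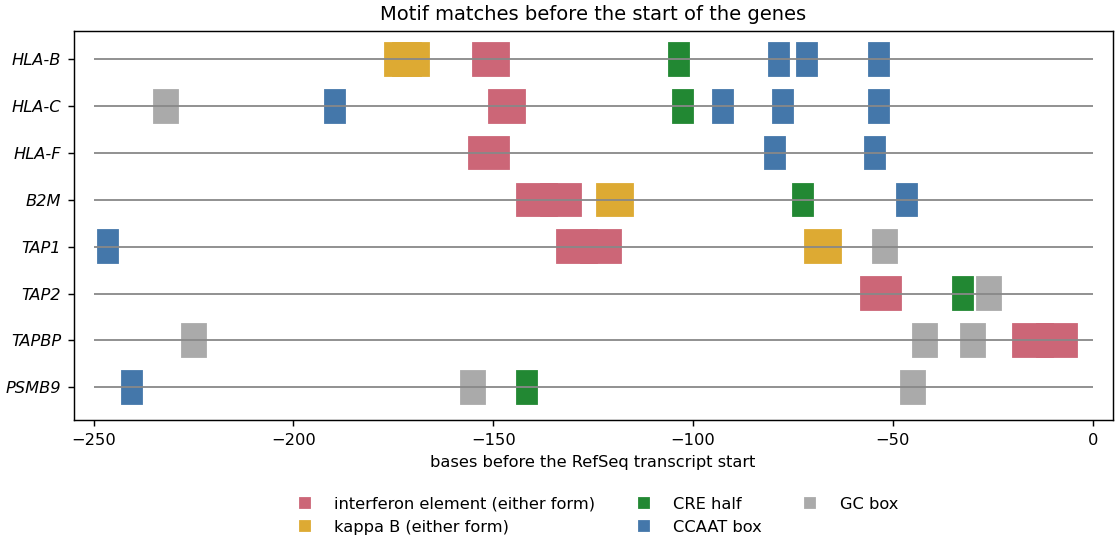
Motif matches in the 250 bases before the RefSeq transcript start of 8 class I presentation genes; the x axis gives bases before the start and each coloured block a match on either strand. HLA-B, HLA-C and HLA-F share an interferon element near position -150 and CCAAT boxes closer to the start, while the interferon elements of TAP2 and TAPBP lie closer to the start.

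As a check of the labels, HNF4A itself stood at 4129 and 3937 normalized counts in the control libraries and at 1140 and 932 in the siHNF4A libraries. The groups did not overlap, and HNF4A fell to 25.7% of its control mean, a log2 change of -1.97 (SE 0.095, adjusted p = 1.59e-05 by limma). Changes are given throughout as siHNF4A minus control on log2(normalized count + 1), a scale that understates changes of low genes, and a gene is said to have passed the test at an adjusted p under 0.05. Of 15577 genes whose mean normalized count reached 10, 2202 passed (14.1%), of which 938 were higher (6.02%) and 1264 lower (8.11%) after the knockdown. With every library scaled to the same total the split became 1136 higher and 1009 lower. Library sums were 18198888 and 18613685 normalized counts in the control libraries and 17912507 and 17913755 in the siHNF4A libraries. Read depth is unknown because the values are normalized. Genes at 0 numbered 5479 and 5640 in the control libraries and 4260 and 4362 in the siHNF4A libraries, so the groups did not overlap in this measure. Its part in the differences of low genes was not tested.

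None of the 9 class I presentation genes passed the test: 0 of 9 by limma, beside 14.1% of all genes tested. At an unadjusted p under 0.05 there was 1 of 9, HLA-F, beside 4504 of 15577. Their differences ran from -0.48 (HLA-F) to 0.089 (HLA-E), with 3 above and 6 below 0 and a median of -0.078, where all genes tested had a median of -0.0073. The median size of their differences regardless of sign was 0.089, beside 0.20 for all genes tested and 0.45 for the genes that passed. The siHNF4A and control libraries did not overlap for 5 of the 9 genes, beside 57.0% of all genes tested, so that share is near the background. With 2 libraries against 2, the smallest p of an exact two-sided permutation test of 1 gene is 0.333, so such a test cannot pass and the fit over all genes was used.

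**Figure D2:**
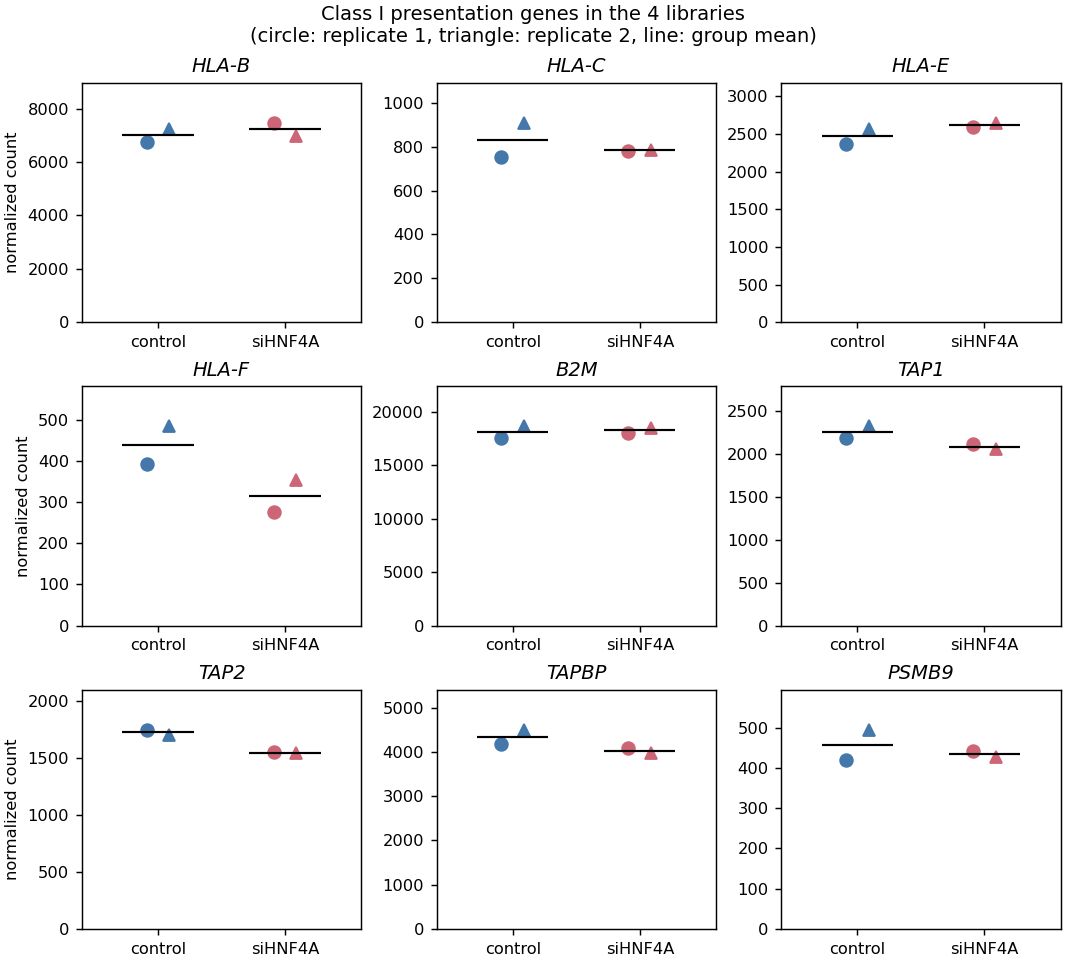
Normalized counts of the 9 class I presentation genes in the 2 control (blue) and 2 siHNF4A (red) libraries; circles are replicate 1, triangles replicate 2, lines group means, and each y axis starts at 0. HLA-F is lower in both siHNF4A libraries than in both controls, while the points of B2M and HLA-B lie close together.

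Among the heavy chains, HLA-B had 6754 and 7238 normalized counts in the control libraries and 7461 and 6983 in the siHNF4A libraries. The groups overlapped, and the difference was 0.046 (95% interval -0.091 to 0.18, adjusted p = 0.672 by limma). In percent of the control level, that interval runs from -6.11% to 13.5%. HLA-C stood at 752 and 908 in the control libraries and at 781 and 784 after the knockdown. Both siHNF4A values lay between the controls, which differed from each other by 1.21-fold. The difference of HLA-C was -0.078 (95% interval -0.32 to 0.16, adjusted p = 0.683 by limma).

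HLA-E, the ligand of the natural killer receptor CD94/NKG2, gave 2370 and 2567 in the control libraries and 2600 and 2648 in the siHNF4A libraries. The siHNF4A values were both above the controls, by a mean of 6.30%, while the controls differed from each other by 1.08-fold. The difference was 0.089 (95% interval -0.066 to 0.24, adjusted p = 0.443 by limma).

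HLA-F was the gene with the biggest difference of the 9. Its normalized counts were 393 and 484 in the control libraries (438 ± 64.8, SD, n = 2) and 277 and 353 in the siHNF4A libraries (315 ± 54.2, SD, n = 2). Both siHNF4A values lay below both controls, with a change in the mean of -28.1%. The difference was -0.48 (SE 0.16, 95% interval -0.82 to -0.13), with an adjusted p of 0.0701 by limma. Its size was at the 82.7th percentile of all genes tested. The call depended on the libraries used: without control replicate 1 the difference was -0.63 with an adjusted p of 0.0122 by limma, and without siHNF4A replicate 1 it was -0.30. With the replicate number as a block, the adjusted p was 0.0194. Over the alternatives run, the adjusted p of HLA-F ranged from 0.0122 to 0.339, and its sign was negative in each. In RefSeq, HLA-F overlaps the antisense gene HLA-F-AS1, which had 33.3 and 43.7 in the control libraries and 39.0 and 21.3 in the siHNF4A libraries. Whether the counting used strand is not given in the sources used here. It is therefore unknown whether reads in the overlap of HLA-F and HLA-F-AS1 were told apart.

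The light chain B2M, which pairs with class I heavy chains, had 17537 and 18661 in the control libraries and 18055 and 18549 in the siHNF4A libraries. Both siHNF4A values lay within the range of the controls. The difference was 0.017 (95% interval -0.098 to 0.13, adjusted p = 0.867 by limma), an interval of -6.55% to 9.52% of the control level. It was the narrowest interval of the 9 genes.

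Reads of similar heavy chain genes can be shared between them, and how such reads were assigned is not given in the sources used here. The heavy chains were therefore also summed per library. HLA-B and HLA-C together gave 7506 and 8146 in the control libraries and 8242 and 7767 in the siHNF4A libraries. The 4 heavy chains together gave 10733 ± 657 (SD, n = 2) in control and 10944 ± 247 (SD, n = 2) in siHNF4A libraries, a log2 difference of 0.029 with overlapping groups. HLA-F was also set against B2M and HLA-E of the same library. The ratio of HLA-F to B2M was 0.0224 and 0.0259 in the control libraries and 0.0153 and 0.0190 in the siHNF4A libraries. Its mean changed by -28.9% after the knockdown, and that of HLA-F to HLA-E by -32.3%. The mean ratio of HLA-B to B2M changed by 2.15%.

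**Figure D3:**
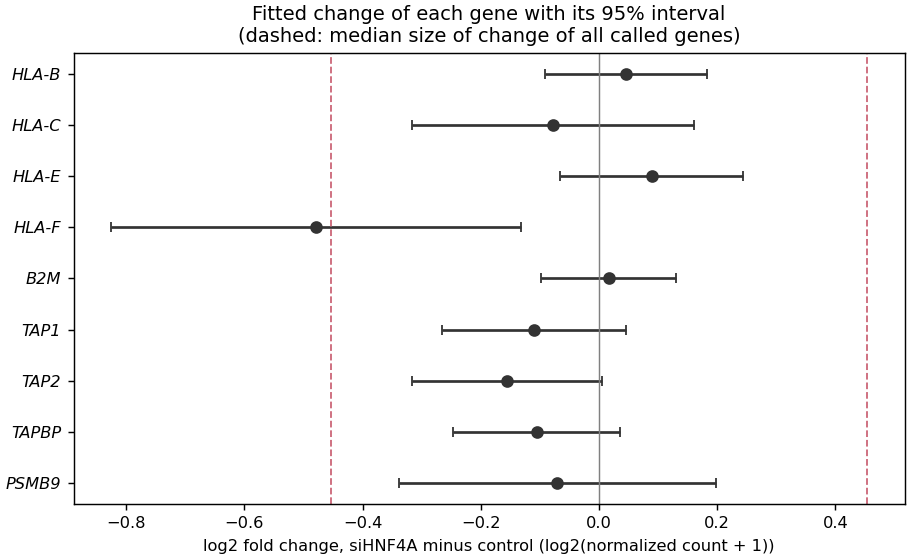
Fitted log2 change (siHNF4A minus control) of each of the 9 genes as a point, with its 95% interval from limma as a bar; dashed lines mark the median size of change, 0.45, of the genes that passed the test. The intervals of 8 genes reach 0; HLA-F alone lies wholly below 0, before adjustment over all genes, and alone reaches a dashed line.

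The genes of peptide transport and loading all had lower means after the knockdown, and none of the 3 passed the test. TAP1 had 2179 and 2318 in the control libraries and 2107 and 2058 in the siHNF4A libraries. Its groups did not overlap, and its difference was -0.11 (95% interval -0.27 to 0.046, adjusted p = 0.340 by limma). TAP1 overlaps the antisense gene PSMB8-AS1 in RefSeq, with the same limit on strand as HLA-F. TAP2, the other transporter subunit, had 1748 and 1701 against 1549 and 1546. Its siHNF4A mean differed from control by -10.2%, and the groups did not overlap. The difference was -0.16 (95% interval -0.32 to 0.0051, adjusted p = 0.187 by limma), the second smallest p of the 9 genes. The ratio of TAP2 to TAP1 differed by -3.21% between the group means. Summed, the transporter genes had 3973 ± 64.3 (SD, n = 2) in control and 3630 ± 36.6 (SD, n = 2) in siHNF4A libraries, a log2 difference of -0.13.

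TAPBP, which encodes the loading chaperone tapasin, had 4179 and 4503 in the control libraries and 4089 and 3976 in the siHNF4A libraries. The groups did not overlap, and the difference was -0.11 (95% interval -0.25 to 0.036, adjusted p = 0.309 by limma). TAPBP overlaps RGL2 in RefSeq, a gene for an activator of Ral GTPases. RGL2 rose from 1766 ± 230 to 2292 ± 152 (SD, n = 2 each), by 0.38 with an adjusted p of 0.0273 by limma. That call was lost without control replicate 2, siHNF4A replicate 1 or siHNF4A replicate 2, where the adjusted p was 0.0911, 0.152 and 0.0519. Reads in the overlap of TAPBP and RGL2 could have been counted for either gene or for neither.

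PSMB9, the immunoproteasome subunit that is transcribed from the other side of the TAP1 start region, had 420 and 495 in the control libraries and 442 and 427 in the siHNF4A libraries. The groups overlapped, and the difference was -0.071 (95% interval -0.34 to 0.20, adjusted p = 0.747 by limma). Its interval runs from -20.9% to 14.7% of the control level. The ratio of PSMB9 to TAP1 was 0.193 and 0.214 in the control libraries and 0.210 and 0.207 after the knockdown, so the groups overlapped there too.

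Which library stood highest was not spread evenly over the 9 genes. Control replicate 2 was the highest library for 6 of 9, beside 30.4% of all genes tested, and the lowest for none. Control replicate 1 was the lowest for 5 of 9, beside 25.6%. Without control replicate 2 the median difference of the 9 genes was 0.048, and without control replicate 1 it was -0.15. The sign of the median thus rested on control replicate 2, which also had the largest library sum. With equal totals the median was -0.039, where all genes tested had a median of 0.031. The signs of HLA-B, HLA-C, B2M and PSMB9 also changed when 1 library was left out. HLA-E stayed above 0, and HLA-F, TAP1, TAP2 and TAPBP below 0, in all 15 fits. Their sizes moved: with 1 library left out, HLA-E ran from 0.032 to 0.15 and HLA-F from -0.65 to -0.30. TAP1 then ran from -0.15 to -0.065, TAP2 from -0.18 to -0.14 and TAPBP from -0.16 to -0.052.

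**Figure D4:**
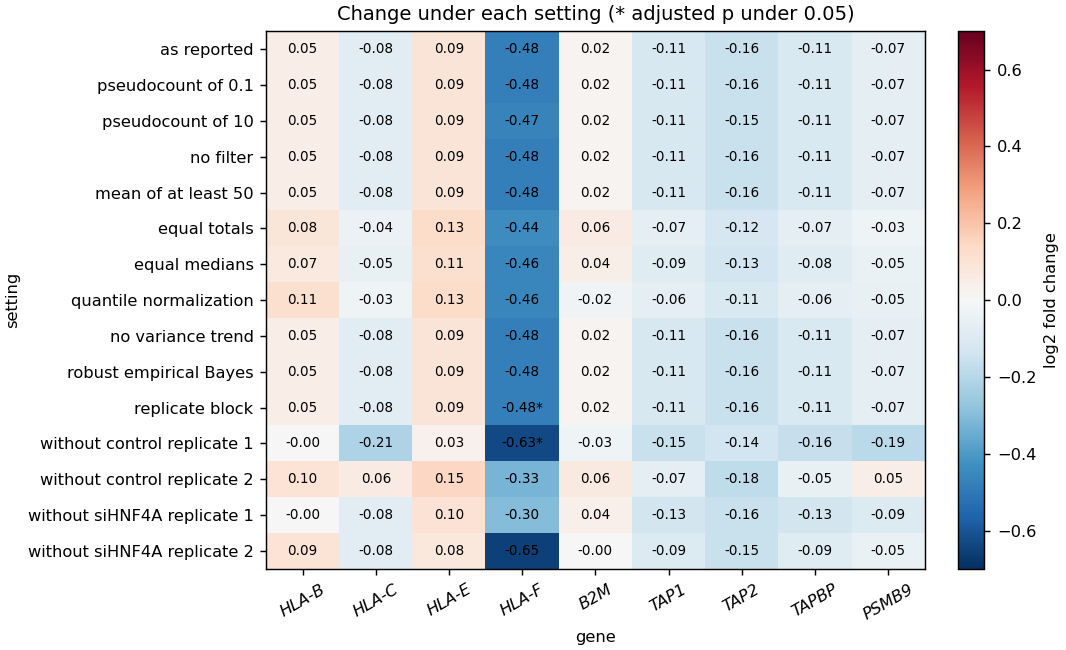
Log2 change of each gene (columns) in the reported fit and under 14 alternatives (rows), red for higher and blue for lower after the knockdown; a star marks an adjusted p under 0.05. Stars appear for HLA-F alone, with the replicate block and without control replicate 1.

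The rest of the pathway was described from lists of genes taken step by step. Peptide generation and trimming was represented by 9 further genes, of which 0 were higher, 1 was lower and 8 did not pass, with a median of -0.10. Among all genes tested, 6.02% were higher and 8.11% lower. Of the 9, the gene that passed was ERAP2, an aminopeptidase that trims peptides to class I length in the endoplasmic reticulum. ERAP2 had 1364 and 1354 in the control libraries and 1066 and 1026 in the siHNF4A libraries, so that it fell by 0.38 on the log2 scale (adjusted p = 0.0121 by limma), a call that did not pass without siHNF4A replicate 2 (adjusted p = 0.0761). Without control replicate 2 or siHNF4A replicate 1, 2 of the 9 genes passed as lower. For comparison with PSMB9, the other inducible catalytic subunits were looked at outside the naming rule, after their values were seen. PSMB8 had a difference of 0.12 (adjusted p = 0.354 by limma) and PSMB10 of -0.33 (adjusted p = 0.102 by limma). With 1 library left out PSMB8 ran from 0.070 to 0.16 and PSMB10 from -0.49 to -0.17. The ratio of PSMB9 to PSMB8 was 0.258 and 0.286 in the control libraries and 0.235 and 0.242 after the knockdown, without overlap. PSMB6 is the standard subunit whose place PSMB9 takes. The ratio of PSMB9 to PSMB6 was 0.291 and 0.300 in the control libraries and 0.323 and 0.320 in the siHNF4A libraries, a mean 8.90% higher. Both genes had lower means after the knockdown and neither passed. PSMB6 had a difference of -0.19 (adjusted p = 0.172 by limma) and PSMB9 of -0.071 (adjusted p = 0.747 by limma).

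The 14 genes of the standard 20S proteasome had differences below 0 in 14 of 14 cases, with a median of -0.16, where 7945 of all 15577 genes tested were below 0. Of the 14, 4 fell and 10 did not pass the test, beside 8.11% lower among all genes tested. All 4 encode subunits of the outer alpha ring. PSMA6 fell from 3824 ± 71.9 to 2759 ± 126 (SD, n = 2 each), a log2 change of -0.47, with an adjusted p of 0.00174 by limma. PSMA2 fell by 0.35 (adjusted p = 0.00668), PSMA3 by 0.28 (adjusted p = 0.0298) and PSMA5 by 0.23 (adjusted p = 0.0487). PSMA6 passed with each library left out in turn. PSMA2 did not pass without siHNF4A replicate 2 (adjusted p = 0.0519). PSMA3 did not pass without control replicate 2 (0.130), siHNF4A replicate 1 (0.0784) or siHNF4A replicate 2 (0.154), and PSMA5 did not without the same libraries (0.203, 0.131 and 0.216). With equal totals or equal medians 13 of 14 were below 0, and with quantile normalization 11 of 14; 3 genes passed in each. Without control replicate 2, 12 of 14 were below 0 and the median was -0.086, and without control replicate 1 the median was -0.23. Between 1 and 5 of the 14 passed with 1 library left out: 5 without control replicate 1, 2 without control replicate 2, 2 without siHNF4A replicate 1 and 1 without siHNF4A replicate 2.

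Of 8 genes of folding and quality control in the endoplasmic reticulum, 1 rose, 0 fell and 7 did not pass, with a median of -0.10. Among all genes tested, 6.02% were higher and 8.11% lower. With 1 library left out the median of the 8 ran from -0.12 (without siHNF4A replicate 2) to -0.048 (without siHNF4A replicate 1). GANAB, the catalytic subunit of glucosidase II that trims N-linked glycans before calnexin and calreticulin bind, had 5360 and 4813 in the control libraries and 9394 and 8984 in the siHNF4A libraries. It rose by 0.85 (adjusted p = 8.39e-05 by limma). The lectin chaperones CALR (0.17, adjusted p = 0.0761) and CANX (-0.17, adjusted p = 0.0553), named for their role after their values were seen, had differences of opposite sign. CALR passed without control replicate 2 (adjusted p = 0.0309) and with equal totals, equal medians or quantile normalization, and CANX without control replicate 1 (adjusted p = 0.0367) and with robust empirical Bayes (adjusted p = 0.0494). Without control replicate 1, 3 of the 8 genes passed as lower in place of 0, among them CANX and the disulfide isomerase PDIA3 (-0.18, adjusted p = 0.0458).

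The regulators of class I genes comprised 20 genes, from interferon-gamma receptors to NLRC5 and the X-box and CCAAT-box factors. Of these 0 rose, 1 fell and 19 did not pass, beside 6.02% higher and 8.11% lower among all genes tested. The 20 had a median of -0.060. IRF1, an interferon-induced factor that binds interferon elements, had 947 and 1086 in the control libraries and 798 and 784 in the siHNF4A libraries. It fell by 0.36 (adjusted p = 0.0353 by limma). The call of IRF1 was lost without control replicate 2 (adjusted p = 0.168), siHNF4A replicate 1 (0.110) or siHNF4A replicate 2 (0.137), and with quantile normalization (0.0534). Without control replicate 1, 2 of the 20 genes passed as lower. With equal totals 1 passed as higher and 1 as lower, and with quantile normalization 1 as higher and 0 as lower. NLRC5, the class I transactivator, is given here for its role, outside the naming rule. NLRC5 had a difference of 0.015 (adjusted p = 0.966 by limma).

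Targets of interferon-gamma outside class I were represented by 10 symbols, of which 9 were found and 7 tested. Among the 7, 1 rose, 2 fell and 4 did not pass, beside 6.02% higher and 8.11% lower among all genes tested. The 7 had a median of -0.086. SOCS1, a feedback inhibitor of JAK kinases, had 94.1 and 111 in the control libraries and 40.6 and 40.5 in the siHNF4A libraries, a log2 change of -1.31 (adjusted p = 0.00627 by limma). The adhesion molecule ICAM1 fell by 0.71 (adjusted p = 0.0169 by limma), from 271 and 223 to 149 and 151. GBP2, an interferon-induced GTPase, rose by 0.64 (adjusted p = 0.0227 by limma), from 148 and 154 to 250 and 223. ICAM1 did not pass without control replicate 1, siHNF4A replicate 1 or siHNF4A replicate 2, with adjusted p from 0.0635 to 0.0705. GBP2 did not pass without siHNF4A replicate 1 (adjusted p = 0.148) or siHNF4A replicate 2 (adjusted p = 0.0679). CXCL10, a chemokine that draws T cells, is named after its values were seen. It had 19.5 and 28.8 in the control libraries and 46.1 and 58.8 in the siHNF4A libraries. Its difference was 1.10 (adjusted p = 0.0526 by limma). CXCL10 passed by limma with a pseudocount of 10 (adjusted p = 0.0450), equal totals (0.0489), robust empirical Bayes (0.0418) or the replicate block (0.0350). With 1 library left out its difference ran from 0.83 to 1.37. The counts became 2 higher and 2 lower with a pseudocount of 10, equal totals, robust empirical Bayes, the replicate block or without control replicate 2. They became 0 higher and 1 lower without siHNF4A replicate 1 or siHNF4A replicate 2. The median of the list was 0.10 without control replicate 2 and 0.024 without siHNF4A replicate 1. It was -0.070 without control replicate 1 and -0.17 without siHNF4A replicate 2.

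Related presentation molecules gave no calls by limma, where 14.1% of all genes tested passed. Of 10 other class I and class I-like genes 8 were tested and 0 passed, with a median of 0.061. That median was -0.053 without siHNF4A replicate 1, with 5 of 8 genes below 0, and 0.00071 under quantile normalization. MR1, which presents vitamin B metabolites to mucosal T cells, had the smallest p among them, with a difference of 0.24 (adjusted p = 0.161 by limma). Of 13 class II genes 8 were tested and 0 passed, with a median of -0.18. Leaving out control replicate 1 gave a median of -0.29, and leaving out control replicate 2 gave -0.088. HLA-DRB1 had the smallest p of these (adjusted p = 0.0759 by limma), with 85.5 and 76.5 in the control libraries and 54.2 and 41.5 in the siHNF4A libraries.

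**Figure D5:**
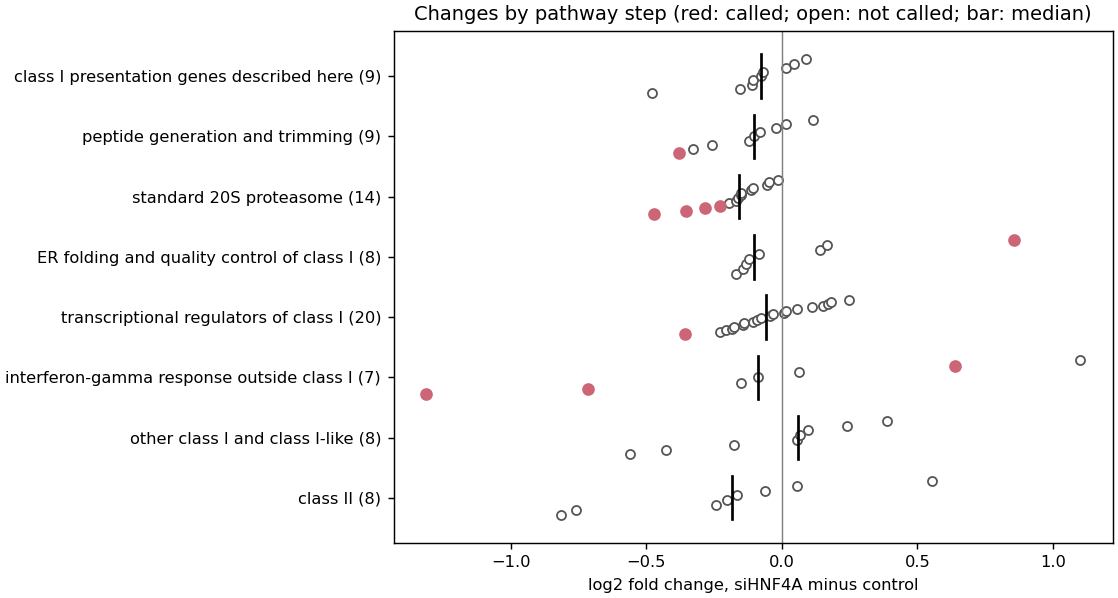
Log2 change (siHNF4A minus control) of each tested gene in the class I presentation set and in 7 lists of pathway genes, with the number tested in parentheses; filled red points passed the test, open points did not, and black bars are medians. No point of the class I presentation set is filled, while 4 points of the 20S proteasome list are.

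The genes next to the 9 in RefSeq order were looked at for their levels in the same libraries. Of 13 protein-coding neighbours outside the set, 12 were in the table and 8 were tested. Of these 2 rose, 0 fell and 6 did not pass, beside 6.02% higher and 8.11% lower among all genes tested. TRIM69, beside B2M on chromosome 15, rose from 283 ± 5.49 to 481 ± 48.9 (SD, n = 2 each), by 0.76 (adjusted p = 0.00404 by limma), where B2M had a difference of 0.017. The other neighbour that rose was RGL2, beside TAPBP. MICA, a stress ligand of natural killer cells beside HLA-B, had 190 and 228 in the control libraries and 159 and 149 in the siHNF4A libraries (-0.43, adjusted p = 0.115 by limma). POU5F1, GNL1, PATL2, PSMB8 and ZBTB22 did not pass either. POU5F1 was at 0.93 without control replicate 1 (adjusted p = 0.0287) and at 0.022 without control replicate 2 (adjusted p = 0.974). GNL1 was at 0.33 without control replicate 2 (adjusted p = 0.0239) and at -0.024 without control replicate 1 (adjusted p = 0.904).

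The pattern of the 9 genes over the 4 libraries was summarised as the mean of their log2 values, each centred on its own mean. That profile was -0.024 and 0.12 in the control libraries and -0.058 and -0.036 in the siHNF4A libraries, so control replicate 2 stood above the other libraries. Among 10909 tested genes with a mean of at least 100, the 5 closest to it by Euclidean distance were PTPN9 (0.0142), EIF3H (0.0149), MCAT (0.0151), SCAF4 (0.0162) and RCHY1 (0.0177). The 4 libraries give few points for such a distance, and it is a description only.

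Markers of epithelium were high, as the label says of the cell line: EPCAM, CDH1, KRT8, KRT18 and KRT19 summed to between 75840 and 78607 normalized counts in the control libraries and between 69099 and 69191 in the siHNF4A libraries. Of these 5, KRT18 fell by 0.51 (adjusted p = 0.000719 by limma), KRT8 fell by 0.43 (0.00162) and EPCAM fell by 0.29 (0.00286). KRT19 rose by 0.22 (adjusted p = 0.0192 by limma), and CDH1 did not pass, though with equal totals or quantile normalization 2 of the 5 passed as higher. The call of KRT19 was lost without control replicate 1 (adjusted p = 0.0521), siHNF4A replicate 1 (0.152) or siHNF4A replicate 2 (0.0814). Leukocytes express class I genes strongly, and their markers were low. Of 7 leukocyte markers 4 were in the table, 2 were tested and 0 passed, and the sum ran from 104 to 126 in the control libraries and from 116 to 118 in the siHNF4A libraries. PTPRC, the pan-leukocyte phosphatase CD45, was at 0 and 1.56 in the control libraries and at 1.27 and 2.05 in the siHNF4A libraries, and CD68 had the smallest p of the list (adjusted p = 0.556 by limma). Fibroblast markers summed to between 132 and 210 in the control and between 235 and 238 in the siHNF4A libraries, with 0 of 3 tested genes passing; COL1A1 (0.57) was at 0.93 without control replicate 1 (adjusted p = 0.0034) and at 0.21 without control replicate 2 (adjusted p = 0.556). Endothelial markers summed to between 15.2 and 24.6 and between 47.2 and 64.0, and VWF rose from 8.55 and 6.68 to 47.5 and 36.4 (adjusted p = 0.00542 by limma), a call lost without siHNF4A replicate 1 (adjusted p = 0.0701). VWF and CXCL10 are low genes, and they were higher in the libraries with fewer genes at 0. Other low genes were lower in those libraries, among them SOCS1 (-1.31) and, without passing, HLA-DRB1 (-0.76). A link of any of these differences to the number of genes at 0 was not tested. Bulk RNA does not tell fewer cells of a kind from less RNA per cell.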

How the data were processed

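RNA-seq of ESO26 cells was analysed from the table of normalized counts, a signal value per gene and library that the authors deposited after their own normalization. The aligner, counter, annotation and normalization of the RNA-seq are not given in the sources used here; the submitters' processing notes name Bowtie, Bowtie2, Trim Galore, Picard, MACS2 and hg19 without roles. Read depth is unknown, so no counting intervals are given.

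Groups came from the titles, 2 libraries each. With R 4.3.3, a linear model per gene (limma 3.58.1, empirical Bayes with a mean-variance trend) was fitted to log2(normalized count + 1) for genes with a mean of at least 10, with Benjamini-Hochberg adjustment over all 15577; adjusted p under 0.05 was the threshold. The code was tested on simulated data. Named genes were HNF4A, the 9 genes, up to 4 passing genes per list by p (else that with the smallest p), their neighbours and the 5 most alike in profile. Members and lists were chosen with earlier results of these data known. Alternatives changed the pseudocount, filter, scaling, variance model, block and libraries; those for list genes and neighbours, and 2 motif forms, were added after seeing the data. Promoter sequences are from RefSeq (GRCh38.p14). Peak lists (hg19) and 4C were not used here.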

Additional observations from a re-analysis of the deposited data

How the results depend on the processing

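Of 126 values of the 9 genes under 14 alternatives, 117 kept their sign and their side of the threshold, 7 changed sign and 2, both of HLA-F, passed the threshold. With all 4 libraries in the fit, 88 of 90 kept both. The exceptions were B2M under quantile normalization (-0.023) and HLA-F with the replicate block, which gave 1 of the 9 genes passing and 2428 genes in all. With 1 library left out, 0 to 1 of the 9 passed (HLA-F, without control replicate 1), and their median ran from -0.15 to 0.048. HLA-B then ran from -0.0040 to 0.096, HLA-C from -0.21 to 0.059, B2M from -0.028 to 0.061 and PSMB9 from -0.19 to 0.048. The causes were not tested. A group left with 1 library is assumed to vary like the other group.

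Genes passing numbered 726 with no filter (30247 tested, 718 shared with the reported 2202). Without a variance trend 0 passed (3524 at an unadjusted p under 0.05), HNF4A (-1.97, adjusted p = 0.0919) included. With 1 library left out the number ran from 1013 (without siHNF4A replicate 2) to 2449 (without control replicate 1), and was 1101 without siHNF4A replicate 1. The other alternatives gave 2067 to 2428. Every named list gene or neighbour that passed lost its call without a variance trend. With no filter ERAP2, PSMA3, PSMA5, IRF1, ICAM1, GBP2, KRT19 and RGL2 also did. PSMA5 (adjusted p = 0.0536 with the block) lost its call under the 3 scalings too. NLRC5 was -0.0090 under quantile normalization and ran from -0.15 to 0.18 with 1 library left out. POU5F1 ran from 0.022 to 0.93, GNL1 ran from -0.024 to 0.33, ZBTB22 from -0.018 to 0.078 and CD68 from -0.95 to 0.20. No scaling moved the median of all genes by over 0.1 (-0.0046 to 0.031).

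Same-numbered libraries of the groups are not stated to be paired, and their deviations from the group means had a correlation of -0.019 across 15577 genes, which are not independent. With only 2 pairs, no pairing was assumed. Precision is limited by 2 libraries a group and by the unknown depth.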
